A study of Homo sapiens with 4 samples.

Results

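Oxidative phosphorylation is carried out by 5 protein complexes of the inner mitochondrial membrane, and their nuclear-encoded genes are described here in the H9 line of human embryonic stem cells, an established cell line, over 4 passage groups. A gene was a member when its symbol starts with NDUF, UQCR, ATP5 or COX plus a digit, or is SDHA, SDHB, SDHC, SDHD or CYC1, with pseudogenes and antisense genes left out and each gene read by its brightest probe. The rule found 100 members among the 19951 genes named on the arrays. Of these, 44 belong to complex I, 3 to complex II, 9 to complex III, 26 to complex IV and 18 to complex V. By role they comprise 20 core subunits, 54 accessory subunits, 18 assembly factors, 6 tissue isoforms, the inhibitor ATP5IF1 and UQCRHL, a paralogue of UQCRH. SDHB and UQCRFS1 were not analysed here, nor were the subunits encoded in mitochondrial DNA. COXFA4, once called NDUFA4, has no member's symbol.

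Complex I oxidises NADH and complex II oxidises succinate, and both pass the electrons to coenzyme Q. Complex III hands them on to cytochrome c, and complex IV transfers them to oxygen. Complexes I, III and IV pump protons across the membrane while they do so, and complex V, the ATP synthase, uses the returning protons to make ATP. Human pluripotent stem cells are known to rely strongly on glycolysis while they keep a functional respiratory chain.

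The samples were total RNA of H9 cells with passage numbers in the 40s (P1), the 100s (P2), the 200s (P3) and the 300s (P4), all of the same line with no other treatment given in the labels. Each passage group had 1 Illumina bead array and there were no replicates, so every difference compares 2 arrays, has no replicate check and carries no p-value. Whether the groups descend from each other in 1 culture is not stated. The 3 pairs that include an array share its own deviations, and no overlap between such pairs is given as a result.

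Values are intensities that look background-subtracted, brought to a common distribution and held at a detection limit of 38.4 units, the 60th percentile. The highest values of the arrays lay between 28270.1 and 30158.8 units, and between 11322 and 11426 genes were at the limit per array. The bead arrays' number limits the precision. Of 10 markers of undifferentiated pluripotent cells, 9 were on the arrays and all 9 were at the limit on all 4, with summed intensities of 64708, 60719, 63882 and 70215 units in P1, P2, P3 and P4. Of 8 fibroblast markers, 4 were at the limit on all 4 arrays, namely COL1A1, COL1A2, THY1 and S100A4. The fibroblast sums rose from 6141 to 6646, 8207 and 9718 units in the same order. The markers COL3A1, DCN, LUM and POSTN stayed under the limit. None of 6 trophoblast markers, and 2 each of the neural, mesoderm and endoderm markers, reached the limit on any array. The fibroblast sum moved with passage, and its part in the results on the respiratory chain was not tested.

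Most respiratory-chain genes were read well above background and differed little between passages. At least 1 array reached the limit for 92 of the 100 members, and all 4 did for 88. Over the 4 arrays the highest intensity of those 88 members was a median of 1.2-fold the lowest, against 1.34-fold for all 10642 genes at the limit on all 4 arrays. Among bright genes, those with a mean of at least 1000 units, the median range was 1.24-fold. The highest value was less than 25% above the lowest for 58 members, at least 25% but under 1.5-fold for 23 and at least 1.5-fold for 7. Those 7 are 7.95% of the 88, against 30.1% of all genes and 13.9% of bright genes, and 5 of them are bright. In bulk RNA, fewer cells of a type and less RNA per cell cannot be told apart.

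The members under the limit on all 4 arrays were NDUFC2, NDUFS6, COX18, ATP5MK and the tissue isoforms COX4I2, COX6A2, COX7A1 and COX7B2. Apart from COX18, each has a lone probe. The data show only that these probes were not above the limit, and a probe can miss its transcript. Complex IV held 5 of the 8, complex I held 2, complex V held 1, and complexes II and III had every member at the limit on all 4 arrays.

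**Figure D1:**
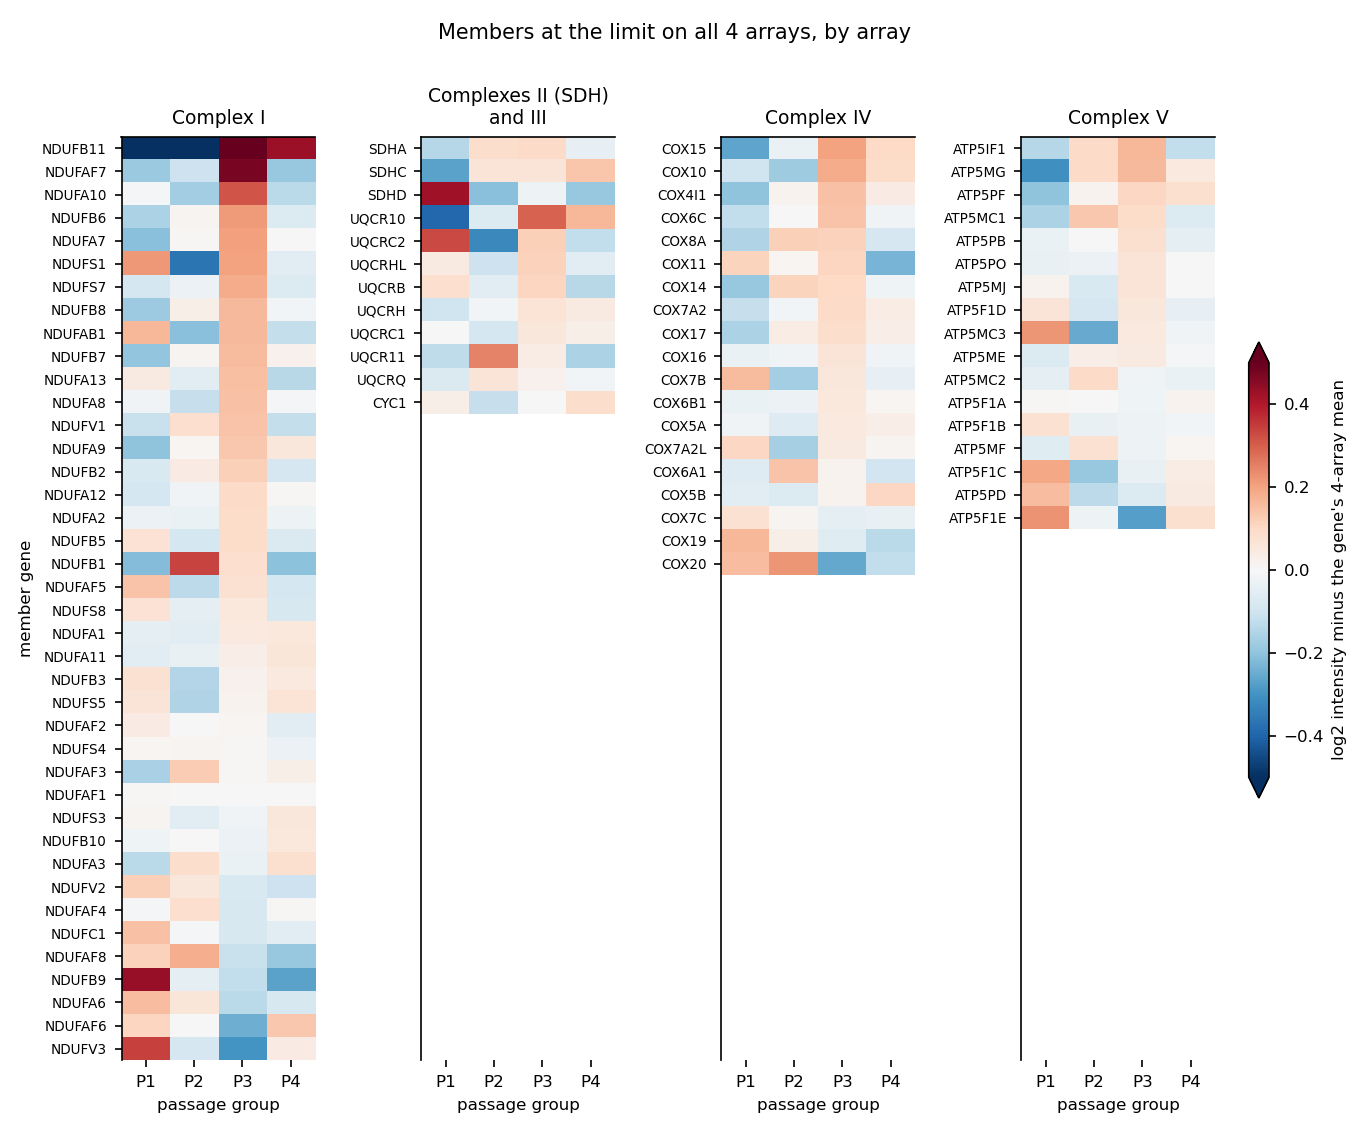
Colour shows the log2 intensity of each member on each array minus the member's mean over the 4 arrays, for the 88 members at the limit on all of them, with passage groups P1 to P4 across and genes down. Within each panel genes are sorted by their P3 value, except that complexes II and III share a panel in turn, and colours end at 0.5 either way, which NDUFB11 passes. Red is common in the P3 column, where 38 of the 88 members had their highest intensity.

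The 7 members with a range of at least 1.5-fold were the accessory subunits NDUFB11, NDUFB9, NDUFV3 and UQCR10, the assembly factor NDUFAF7, and the core subunits SDHD and UQCRC2. NDUFB11, a subunit of the membrane arm of complex I, read 3616.3, 3585.1, 7630.5 and 6876.8 units in P1, P2, P3 and P4, so that P3 and P4 stood above both earlier groups. UQCR10, a small subunit of complex III, read 473.1, 591.0, 761.5 and 695.5 units, with P1 lowest and P3 highest. SDHD, a membrane anchor of complex II, read 1842.5, 1191.2, 1351.9 and 1205.2 units, so P1 alone was high. UQCRC2, a core protein of complex III, read 2299.1, 1462.3, 1988.4 and 1679.8 units and was highest in P1 and lowest in P2. The remaining 3 are taken up with complex I.

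Promoters of these 4 are printed because they belong to the members that differed most and moved in different ways. RefSeq's table (GRCh38.p14) held a window of 250 bases before to 50 bases after the start for 83 of the 100 members. Capitals mark the motifs described next, on either strand. NDUFB11 lies at chrX:47144653-47144952 (minus strand), UQCR10 at chr22:29767119-29767418 (plus), SDHD at chr11:112086623-112086922 (plus) and UQCRC2 at chr16:21953111-21953410 (plus).
NDUFB11: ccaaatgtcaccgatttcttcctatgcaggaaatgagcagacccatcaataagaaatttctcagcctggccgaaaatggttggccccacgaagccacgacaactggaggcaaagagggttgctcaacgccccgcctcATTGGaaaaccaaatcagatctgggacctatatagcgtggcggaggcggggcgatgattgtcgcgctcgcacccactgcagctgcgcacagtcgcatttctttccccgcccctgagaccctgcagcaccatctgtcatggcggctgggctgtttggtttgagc
UQCR10: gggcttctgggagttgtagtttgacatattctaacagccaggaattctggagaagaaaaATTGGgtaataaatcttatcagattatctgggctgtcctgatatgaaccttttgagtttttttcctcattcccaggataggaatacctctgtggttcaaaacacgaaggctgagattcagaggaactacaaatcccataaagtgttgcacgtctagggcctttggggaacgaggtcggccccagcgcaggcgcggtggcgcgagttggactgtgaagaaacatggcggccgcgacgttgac
SDHD: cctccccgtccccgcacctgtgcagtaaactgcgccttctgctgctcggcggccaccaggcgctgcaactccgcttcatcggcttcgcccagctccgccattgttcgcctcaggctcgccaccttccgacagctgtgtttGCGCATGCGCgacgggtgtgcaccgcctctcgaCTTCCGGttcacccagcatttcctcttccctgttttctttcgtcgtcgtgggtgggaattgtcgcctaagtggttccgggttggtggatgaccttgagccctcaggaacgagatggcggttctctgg
UQCRC2: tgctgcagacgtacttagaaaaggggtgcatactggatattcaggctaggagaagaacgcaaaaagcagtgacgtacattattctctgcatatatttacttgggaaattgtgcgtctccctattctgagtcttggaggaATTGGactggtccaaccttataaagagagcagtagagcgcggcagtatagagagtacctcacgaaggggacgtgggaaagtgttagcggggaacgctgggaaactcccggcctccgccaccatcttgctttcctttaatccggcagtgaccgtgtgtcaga

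Motifs of factors known to act on nuclear genes of the respiratory chain were searched on both strands of each window. The SDHD window held a palindrome-like stretch that matches GCATGCGC, the core of the NRF1 motif, in both orientations with overlap, and 1 match to the ETS motif CCGGAAG. Each of the other printed windows held 1 CCAAT box and no match to the NRF1, ETS or YY1 letters. NRF1 matches stood in 16 of 83 member promoters, or 19.3%, against 5.46% of the promoters of the 9577 coding genes at the limit and 4.26% of all 15842 coding genes. The ETS motif was in 27.7% of member promoters, against 18.6% and 14.2%, and the YY1 motif AAGATGGC in 13.3%, against 5.33% and 3.91%. CCAAT was in 37.3%, against 36.8% and 36.4%. A match is a run of letters, and binding was not measured.

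By complex, NRF1 matches were found in 7 of 39 promoters of complex I, 1 of 2 of complex II, 0 of 6 of complex III, 4 of 22 of complex IV and 4 of 14 of complex V. In P3 against P2 the median log2 difference was 0.09 for the 14 detected members with an NRF1 match and 0.08 for the 63 without. For the ETS motif both medians were 0.08, with 22 members against 55, and for YY1 they were 0.10 and 0.08, with 11 against 66. The ETS medians lay further apart in P2 against P1, at 0.10 and 0.00, and in P4 against P1, at 0.06 and -0.01.

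**Figure D2:**
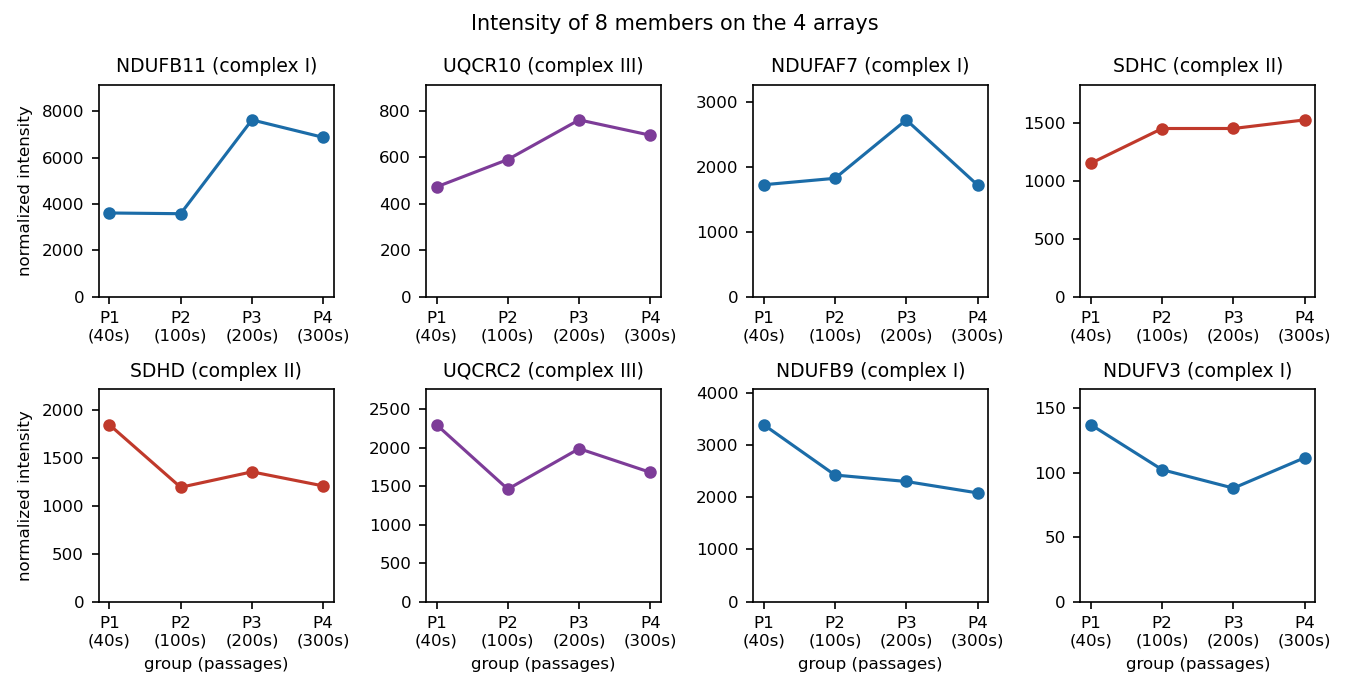
Each panel plots the normalized intensity of 1 member (vertical axis from 0, in intensity units) on the 4 arrays, P1 to P4 across, with 1 array per point. The 8 genes are the 7 with a range of at least 1.5-fold and SDHC. NDUFB11 is high in P3 and P4, NDUFAF7 in P3 alone, and SDHD and NDUFB9 in P1 alone.

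P3 held the highest intensity of more members than any other array. Of the 88 members at the limit on all 4 arrays, 25 peaked in P1 and 15 in P2, against 38 in P3 and 10 in P4. The P3 count is 43.2% of members, where P3 was highest for 21.5% of all genes, and among bright members it was 36 of 72, or 50%, where it was 21.4% of bright genes. P3 held the lowest intensity of 10 members, or 11.4%, against 21.3% of all genes, while 33 members were lowest in P1, 29 in P2 and 16 in P4. The excess comes in small steps, since the median of the 88 members was 0.08 log2 units above P1 and 0.08 above P2 in P3. Genes made together can also vary together, so the members are not independent counts.

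Accessory subunits contributed most of that count. P3 was highest for 27 of 49 accessory subunits (55.1%), 4 of 20 core subunits (20.0%) and 5 of 17 assembly factors (29.4%). Core subunits were instead highest in P1 in 10 of 20 and lowest in P2 in 10 of 20, where 27.1% of all genes were highest in P1 and 24.7% lowest in P2. By complex, P3 was highest for 16 of 40 members of complex I, 1 of 3 of complex II, 5 of 9 of complex III, 9 of 19 of complex IV and 7 of 17 of complex V. No test of the differences between classes or complexes was made. Counting all 113 probes of members at the limit on all 4 arrays in place of the brightest, P3 was highest for 44.2%, and without the 3 X-linked members the count was 37.

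**Figure D3:**
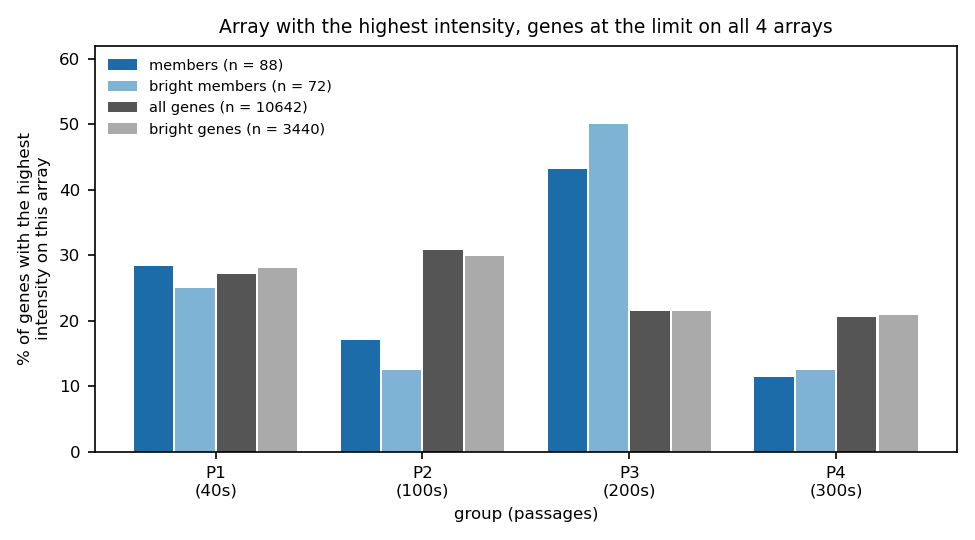
Bars, from 0, give the percent of genes with their highest intensity on each array, for the members (n = 88), the bright members (n = 72), all genes (n = 10642) and bright genes (n = 3440) at the limit on all 4 arrays. P3 holds 43.2% of the members and 50% of the bright members, against 21.5% and 21.4% of all and bright genes.

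Pair by pair, the members' medians lay within 0.08 log2 units of 0. In P2 against P1 the median over 92 members was -0.01, with 45 above 0, where all genes had a median of 0.03 and 52.9% above 0. In P3 against P1 it was 0.08 over 91 members, with 55 above 0 and an all-gene median of 0.02. In P4 against P1, the widest passage span, it was 0.01, with 49 of 92 above 0 and an all-gene median of 0.03. The early and the latest array thus differed less in their median than either differed from P3. P3 against P2 gave 0.08 with 64 of 91 above 0 (70.3%, where all genes had 47.3%), and P4 against P2 gave 0.00 with 49 of 92 above 0. In P4 against P3 the median was -0.08 and 26 of 92 were above 0, or 28.3%, where all genes had 49.1% and a median of -0.00.

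Few members differed by a modest margin, set at 25% higher or, for the same ratio turned round, 20% lower. In P2 against P1, 4 members were higher by that margin and 10 lower, where 20.9% and 18.5% of all detected genes were. P3 against P1 had 14 higher and 6 lower (19.1% and 16.8% of all genes), and P4 against P1 had 5 and 5 (18.7% and 15.8%). P3 against P2 had 10 higher and 1 lower (15.5% and 16.1%), P4 against P2 had 1 and 4 (15.5% and 15.3%), and P4 against P3 had 3 and 5 (11.8% and 10.8%). As shares of the members, none of these counts exceeds the share of all genes, which include many dim ones. The single lower member in P3 against P2 was COX20.

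Among bright genes, 2 of the counts lay slightly above the share of bright genes. With 1 array per group, gaps this small are not read as a result about the members. In P3 against P1, 11 of 72 bright members, or 15.3%, were higher by the same margin, against 12.4% of bright genes, and in P3 against P2 6 of 72, or 8.33%, against 7.88%. In the other pairs the higher bright members numbered 2, 3, 1 and 1 in P2 against P1, P4 against P1, P4 against P2 and P4 against P3, where the shares of bright genes were 15%, 12.9%, 7.85% and 5.38%. Lower bright members numbered 6, 3 and 3 in P2, P3 and P4 against P1, where 10.3%, 10.5% and 9.45% of bright genes were lower. They numbered 0 in P3 against P2, 0 in P4 against P2 and 2 in P4 against P3, where the shares were 8.78%, 8.17% and 3.92%.

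At 1.5-fold in either direction the counts were 3 in P2 against P1, 4 in P3 against P1, 4 in P4 against P1, 2 in P3 against P2, 1 in P4 against P2 and 2 in P4 against P3. The shares of all genes past 1.5-fold in these pairs were 15.8%, 13.6%, 12.3%, 11.9%, 11.8% and 7.78%. All genes include many dim ones, and the gap is smaller among bright genes. In P4 against P1, 1 of 72 bright members was higher and 2 were lower, against 105 and 85 of 3440 bright genes. NDUFB4, close to the limit, is counted in P2 against P1, P4 against P1, P3 against P2 and P4 against P3. At 2-fold NDUFB11 was the lone member, in P3 against P1 and in P3 against P2. The spread between members was narrower than that between genes in general. The interquartile range of the log2 differences in P4 against P1 was 0.23 for members, 0.44 for all genes and 0.32 for bright genes, and in P3 against P2 it was 0.20, 0.40 and 0.28.

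**Figure D4:**
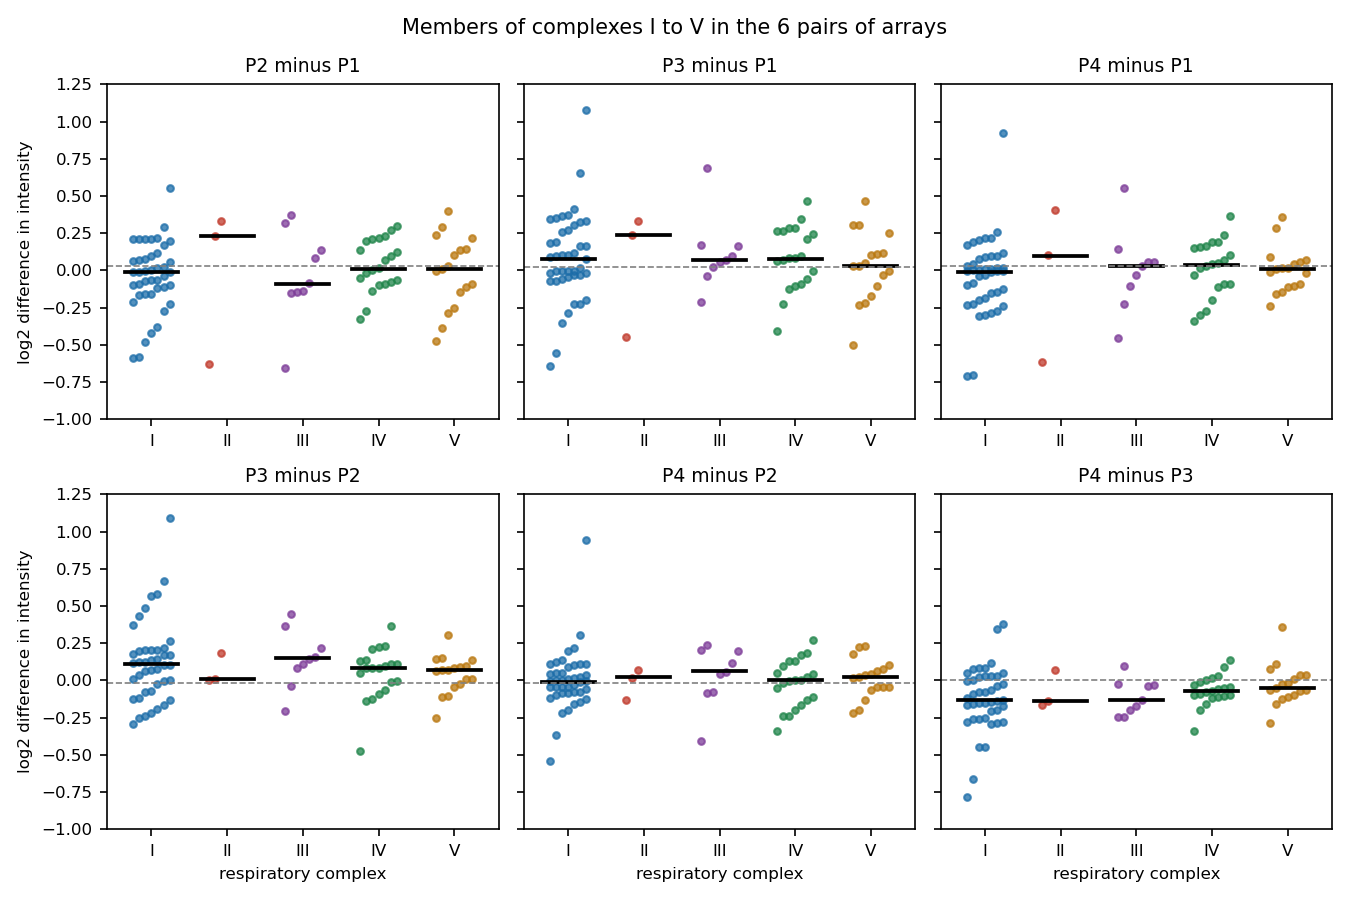
Each panel is a pair of arrays, and each point the log2 difference in intensity (first-named minus second-named array) of a detected member, by complex I to V, with a black bar at the complex median and a dashed line at the median of all genes. Points of NDUFB4, NDUFA5, COX6B2 and COX8C that involve an array under the limit are bounds. Most points lie within 0.5 of 0, and in P4 minus P3 all 5 complex medians are below 0, from -0.14 to -0.05.

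The 5 complexes had similar medians in most pairs. In P4 against P1 the median log2 difference was -0.01 for complex I, 0.10 for complex II, 0.03 for complex III, 0.04 for complex IV and 0.01 for complex V. P3 against P1 gave 0.08, 0.24, 0.07, 0.08 and 0.03 in the same order, and P3 against P2 gave 0.11, 0.01, 0.15, 0.08 and 0.07. In P4 against P3 all 5 were below 0, at -0.13, -0.14, -0.13, -0.07 and -0.05. P2 against P1 split them, at -0.01, 0.23, -0.09, 0.01 and 0.01, and P4 against P2 gave -0.01, 0.02, 0.06, 0.00 and 0.02. Complex II, with the largest medians in the pairs with P1, rests on 3 genes, and with the mean of all detected probes in place of the brightest its medians in P2, P3 and P4 against P1 were 0.04, 0.11 and -0.06.

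Complex I had the member that differed most, NDUFB11, and otherwise members that moved in both directions. NDUFB11 was 2.11-fold higher in P3 and 1.9-fold higher in P4 than P1, and 2.13-fold and 1.92-fold higher than P2. NDUFB9, another accessory subunit of the membrane arm, read 3390.7, 2426.9, 2303.1 and 2084.1 units in P1, P2, P3 and P4 and was 1.63-fold lower in P4 than P1. Its P1 value stood apart and the other 3 lay close together. NDUFV3, an accessory subunit at the flavoprotein tip, was dim, at 137.3, 102.4, 88.1 and 111.7 units, and 1.56-fold lower in P3 than P1. The fold was under 1.5 with an offset of 50 (log2 difference of -0.44) and with the mean of detected probes (-0.32), and a second probe, at the limit in P2 alone, read 18.7, 49.3, 32.1 and 34.1 units. NDUFB4, of the membrane arm, lay just above the limit at 62.7, 41.7 and 66.1 units in P1, P2 and P3 and under it at 20.3 in P4, so that it was at least 1.63-fold lower in P4 than P1. Its fold changes with the limit chosen and rests on low intensities.

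Of the 6 core subunits of complex I analysed, which belong to the arm that oxidises NADH, NDUFS1 had the widest range, just under 1.5-fold, and the others ranged by at most 1.21-fold. NDUFV1, which binds NADH and FMN, read 1359.4, 1557.7, 1622.9 and 1353.4 units, and NDUFV2, an iron-sulfur subunit, 5634.6, 5399.3, 4919.1 and 4830.9. NDUFV1 was highest in P3 and NDUFV2 in P1. NDUFS7 (1507.7, 1571.3, 1822.5 and 1526.3) was highest in P3, and NDUFS3 (5408.9, 5171.9, 5295.4 and 5577.4) was highest in P4. NDUFS8, which carries iron-sulfur clusters, read 9083.9, 8360.7, 8960.6 and 8166.1 units. NDUFS1, the largest subunit, was close to the limit at 60, 40.1, 59.4 and 49.6 units, and was lowest in P2.

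Several accessory subunits of complex I shared a P3 maximum without reaching 1.5-fold. NDUFA10, of the membrane arm, read 1038.2, 926.7, 1300.5 and 951.3 units and was 1.4-fold higher in P3 than P2. NDUFA7 read 998.6, 1156.8, 1329.7 and 1150.4 units, 1.33-fold higher in P3 than P1. NDUFB6 was 1.29-fold, NDUFB7 1.28-fold, NDUFB8 1.27-fold and NDUFA9 1.26-fold higher in P3 than P1. Among these, NDUFA9, near the coenzyme Q site, and NDUFB7 had the highest P4 against P1 differences after NDUFB11, at 0.26 and 0.22 on the log2 scale. NDUFA9 read 1289.9, 1494.7, 1627.2 and 1540.6 units and NDUFB7 2905.5, 3363.1, 3715.2 and 3375.6, with P1 lowest in both. NDUFAB1, the mitochondrial acyl carrier protein, read 6369.2, 4904.4, 6339.9 and 5220.9 units, so that P1 and P3 were high and P2 and P4 low.

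The 8 assembly factors of complex I had medians of -0.05 in P3 against P1 and -0.01 in P4 against P1, against 0.10 and -0.00 for the 34 detected subunits. NDUFAF7, an arginine methyltransferase needed for complex I assembly, read 1728.3, 1827.4, 2728.0 and 1723.8 units, high in P3 alone and 1.58-fold higher there than P1. A second probe of NDUFAF7 read 615.4, 523.0, 867.5 and 579.4 units and was also highest in P3, but the remaining probe read 2457.4, 1640.9, 1723.1 and 1558.1 units and was highest in P1. NDUFAF8, a partner of NDUFAF5, was dim at 69.9, 73.2, 59.7 and 56.6 units, with a log2 difference of -0.30 in P4 against P1. NDUFAF1, needed for the membrane arm, hardly varied, at 647.2, 644.0, 646.1 and 644.2 units.

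NDUFB11 is 1 of 3 X-linked members, and its neighbours on that chromosome were examined because the gene stood apart. Of the 10 nearest detected genes, 5 on each side, 4 exceeded their P1 level by 1.5-fold or more in P3 and 5 did so in P4. Their median log2 differences were 0.42 and 0.64. RP2 was 2.19-fold, SYN1 2.13-fold and ARAF 2.09-fold higher in P3 than P1, while UBA1 was 1.17-fold and USP11 1.08-fold higher. Among all detected X-linked genes, 24.8% were at least 1.5-fold higher in P3 than P1 and 24.3% in P4 than P1, against 7.36% and 6.8% of all genes. In P2 against P1 the share was 11.5%, against 8.12%.

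The other X-linked members did not share the level of NDUFB11. NDUFA1, an accessory subunit of complex I, read 8473.3, 8425.8, 9050.3 and 9075.7 units, a range of 1.08-fold. COX7B, of complex IV, read 5343.9, 4255.2, 4980.0 and 4658.5 units, highest in P1 and lowest in P2. The part of the chromosomal position in the NDUFB11 result was not tested.

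**Figure D5:**
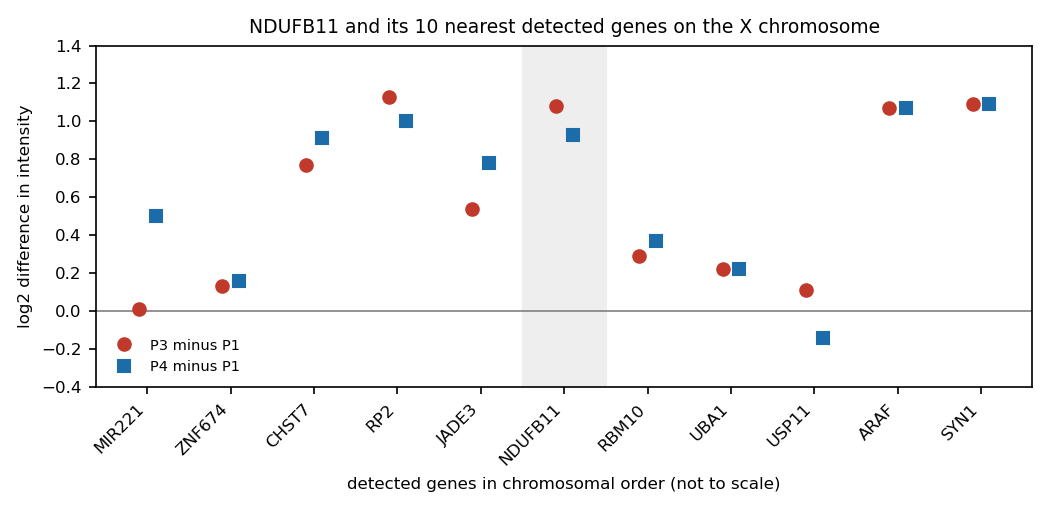
Points give the log2 difference in intensity from P1 for P3 (circles) and P4 (squares) of NDUFB11 (shaded) and the 5 nearest detected genes on each side, in chromosomal order and not to scale. NDUFB11, RP2, ARAF and SYN1 lie at or near 1, and RBM10, UBA1 and USP11 lie below 0.4.

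Complex II, succinate dehydrogenase, had 3 members that did not move together. SDHA, the flavoprotein that oxidises succinate, read 1023.0, 1201.2, 1207.3 and 1097.5 units in P1, P2, P3 and P4. SDHC, a membrane anchor beside SDHD, read 1154.9, 1455.3, 1455.4 and 1529.8 units and was 1.32-fold higher in P4 than P1. SDHD went the other way and was 1.55-fold lower in P2, 1.36-fold lower in P3 and 1.53-fold lower in P4 than P1. The second probes of SDHA (915.6, 820.1, 906.1 and 780.2 units) and SDHC (867.0, 898.0, 931.2 and 911.5 units) showed P4 against P1 log2 differences of -0.23 and 0.07, against 0.10 and 0.41 for the brightest. SDHD has a lone probe.

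Complex III had all 9 members at the limit on all 4 arrays, and 5 of them were highest in P3. UQCR10 was 1.61-fold higher in P3 and 1.47-fold higher in P4 than P1. This rests on 1 of 3 probes, since another read 425.0, 355.5, 378.3 and 337.8 units, highest in P1, and the other read 180.4, 192.5, 202.7 and 173.6. UQCRC2 was 1.57-fold lower in P2 and 1.37-fold lower in P4 than P1, whereas its partner core protein UQCRC1 read 3448.2, 3245.8, 3589.3 and 3519.7 units. CYC1, the haem-bearing cytochrome of the complex, read 5289.0, 4780.5, 5166.1 and 5511.7 units and was the 1 member of the complex above 0 in P4 against P3.

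Among the other small subunits of complex III, UQCRQ read 8945.9, 9842.9, 9563.9 and 9326.4 units, and UQCRB, near the coenzyme Q site, 1720.6, 1562.6, 1745.8 and 1474.9. UQCRB was lowest in P4. UQCRH, the acidic hinge protein, read 14838.3, 15762.2, 16690.5 and 16388.3 units, and its near-identical paralogue UQCRHL 14189.5, 12795.0, 14868.0 and 13196.2. The 2 genes may share probe signal, and both were in the top 1% of values, above 13341 units on average, where bead arrays compress differences. A second UQCRH probe, far below that level, read 2479.7, 1824.6, 2220.6 and 2160.1 units and was highest in P1. UQCR11 read 189.1, 245.4, 212.2 and 185.0 units, 1.3-fold higher in P2 than P1.

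Complex IV has its catalytic core encoded in mitochondrial DNA, so its nuclear members here are accessory subunits, tissue isoforms and assembly factors. The 10 detected accessory subunits had a median log2 difference of 0.08 in P3 against P1 and 0.06 in P4 against P1. COX4I1, the ubiquitous isoform of the largest nuclear subunit, read 8765.4, 10192.8, 11140.0 and 10352.6 units and was 1.27-fold higher in P3 than P1. COX6A1 (4694.3, 5427.1, 4975.0 and 4596.8), COX6B1 (6366.8, 6375.5, 6755.3 and 6556.0), COX7A2 (11591.1, 12421.4, 13398.8 and 12874.8) and COX8A (9768.5, 11769.5, 11755.9 and 10245.4) are the other ubiquitous forms. COX6A1 and COX8A were highest in P2, and COX6B1 and COX7A2 in P3.

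The tissue isoforms of those subunits were at or under the limit. COX4I2, of lung, COX6A2 and COX7A1, of heart and skeletal muscle, stayed below 38.4 units on every array. COX6B2, of testis, read 40.9, 28.5, 24.1 and 38.5 units and COX8C, also of testis, 15.7, 42.4, 23.9 and 39.1, each at the limit on 2 arrays. These values have no usable order. ATP synthase likewise has 3 genes for the membrane ring subunit, which encode the same mature protein, and all 3 were at the limit on all 4 arrays. ATP5MC1 read 2486.6, 3044.8, 2954.1 and 2646.7 units, ATP5MC2 8349.7, 9227.1, 8535.3 and 8432.3, and ATP5MC3 251.5, 181.1, 223.4 and 212.9. ATP5MC1 and ATP5MC2 were highest in P2 and ATP5MC3 was lowest there.

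Assembly factors of complex IV gave its widest ranges. COX15 and COX10, enzymes of haem A synthesis, were both highest in P3, at 159.8, 187.7, 220.6 and 205.6 units and at 1164.3, 1103.6, 1418.1 and 1331.5 units in P1, P2, P3 and P4. COX15 was 1.38-fold and COX10 1.22-fold higher in P3 than P1. COX11 and COX19, which serve copper delivery, were lowest in P4, at 76.1, 70.9, 75.9 and 60 units and at 1419.3, 1292.0, 1211.7 and 1153.4 units. COX20, a chaperone of a mitochondrially encoded subunit, read 382.6, 401.0, 288.2 and 316.1 units, and was 1.33-fold lower in P3 than P1. COX17, the copper chaperone upstream of COX11, read 5549.1, 6360.9, 6574.1 and 6339.9 units and was lowest in P1.

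Complex V had no member past 1.5-fold in any pair. ATP5MG, a membrane subunit, read 6092.9, 8046.7, 8425.8 and 7803.2 units and was 1.28-fold higher in P4 than P1, with P1 lowest. Its second probe read 1002.0, 680.8, 916.8 and 735.8 units and was highest in P1. ATP5PF, of the peripheral stalk, read 6568.9, 7650.3, 8132.2 and 8000.7 units, and its other probes were also lowest in P1. ATP5F1E, a subunit of the rotating stalk, read 2866.4, 2410.9, 2027.1 and 2592.8 units, 1.41-fold lower in P3 than P1, and ATP5F1C, of the same stalk, 3654.5, 2799.9, 3112.6 and 3276.3 units, 1.31-fold lower in P2 than P1. The catalytic head subunits ATP5F1A (19333.6, 19260.2, 18955.9 and 19471.2) and ATP5F1B (26748.3, 24758.5, 24921.7 and 25124.4) lay in the top 1% of values. ATP5IF1, the inhibitor of the reverse reaction, read 1214.6, 1433.1, 1504.0 and 1230.7 units, with P2 and P3 above P1 and P4. Its dimmer second probe read 102.8, 115.1, 78.2 and 68.9 units, with P3 and P4 below P1 and P2.

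The probes of a gene did not always point the same way. Of the 92 members at the limit, 21 had other probes at the limit on all 4 arrays, 25 in all, and these took the direction of the brightest probe in 14 cases in P2 against P1, 15 in P3 against P1 and 10 in P4 against P1. Between later groups the counts were 19 in P3 against P2, 15 in P4 against P2 and 21 in P4 against P3. The median gap between the probes' log2 differences was 0.20, 0.16 and 0.19 in the pairs with P1, and 0.15, 0.11 and 0.11 in the others.

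Related mitochondrial genes, in lists set alongside the members, also had medians near 0 in P4 against P1. The median was -0.04 over 41 assembly factors with other names, -0.04 over 17 genes of electron carriers and coenzyme Q synthesis and 0.08 over 17 genes of mitochondrial transcription and biogenesis. It was 0.09 over 12 genes of the tricarboxylic acid cycle, -0.01 over 7 carriers of ATP and phosphate, and -0.07 over 48 large-subunit and -0.03 over 29 small-subunit genes of the mitochondrial ribosome. In P3 against P2, where 64 of 91 members were above 0, 47.3% of all genes were. The counts above 0 in that pair were 15 of 40 assembly factors, 5 of 17 electron carrier and coenzyme Q genes, 11 of 17 biogenesis genes, 10 of 12 tricarboxylic acid cycle genes and 6 of 7 carriers of ATP and phosphate. For the mitochondrial ribosome they were 27 of 48 large-subunit and 17 of 29 small-subunit genes.

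Of the list genes counted above in P4 against P1, few passed 1.5-fold, where 12.3% of all genes did. All that passed are named here. NUBPL, which inserts iron-sulfur clusters into complex I, read 5518 units in P4 and 8678 in P1, 1.57-fold lower. CHCHD2, which binds complex IV, was under the limit in P4 against 8230 units in P1, at least 214-fold lower, and was under it in P2 and P3 too. DHODH, which feeds electrons from pyrimidine synthesis to coenzyme Q, was 1.66-fold lower and dim, and the ribosomal genes MRPL1 and MRPL57 were 1.55-fold and 1.52-fold lower. POLG2, an accessory subunit of the mitochondrial DNA polymerase, read 867.4 units in P4 and 548.8 in P1, 1.58-fold higher.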

How the data were processed

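Total RNA of 1 sample per passage group was extracted with Trizol, cleaned on columns with DNase treatment and turned into biotinylated cRNA for Illumina bead arrays, per the labels' protocols. The deposited values are linear probe intensities that look background-subtracted, since 25.2% to 25.4% of the 47323 values of an array are below 0. The array medians, 17.4 to 17.5 units, and quantiles are nearly equal, and the software and its normalization are not given in the sources used here. Equal distributions would mask a change in total RNA, and low values are noisy after subtraction.

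The arrays were quantile normalized, held at the 60th percentile and put on the log2 scale (Python 3.11.15, numpy 2.4.6, pandas 2.3.3, figures with matplotlib 3.10.9). The platform annotation named 1 gene for 30113 probes and several for 8, and 17202 probes were not listed. Y-linked genes and 4 X-inactivation transcripts were not used here. The probe brightest on average stood for its gene, and a pair was read where either array was at the limit. With 1 array under it, the fold is a bound, and medians keep such genes at it. Margins of 25% (20% downward), 1.5-fold and 2-fold describe the arrays, and no test was made. The calculation was tested on simulated data.

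Members and lists were chosen with earlier results of these data known. Genes named in full were the 3 highest and 3 lowest per complex in P4 against P1, the 2 widest ranges per complex, every member past 1.5-fold and the isoform pairs; further members were named after their values were seen, as were the neighbours of NDUFB11. Alternatives changed the normalization, limit, offset, filter, probe choice and members.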

Additional observations from a re-analysis of the deposited data

How the results depend on the processing

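No paired analysis was possible because each passage group had 1 array. Of the medians, recomputed under 10 alternatives set out at the start, 357 values kept their size and 3 moved. Of the counts, whose recomputation was added after the data were seen, 65 kept their size and 7 moved. Of the values of single members, 144 kept their size and 9 moved, and no called value turned its direction. The median of complex II moved with the mean of all detected probes, to 0.04 in P2 against P1, 0.11 in P3 against P1 and -0.06 in P4 against P1. Members past the margin of 25% higher or 20% lower in P4 against P2, 5 by the settings used, numbered 9 with the limit at the 50th percentile, 3 at the 75th and 3 among structural subunits only. In P4 against P3, where 8 passed, there were 13 at the 50th percentile, 4 at the 75th, 5 with the limit replaced by an offset of 50 and 5 among structural subunits only. A higher limit or fewer members lets fewer genes enter, and an offset shrinks the folds of dim genes. The share of members highest in P3 lay between 43.0% and 45.5% in all settings, against 21.2% to 21.9% of all genes. Of single genes, NDUFB4, NDUFV3, NDUFAF7 and UQCR10 moved by over 0.1 log2 units, and the mean of detected probes took NDUFAF7 and UQCR10 in P3 against P1 to 0.21 and 0.23. With 1 array per group no spread between replicates is known, and differences of dim genes rest on few units above background.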

Other observations

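Among the related lists, 2 genes chosen after their values were seen were low in P3. SUCLG2, a subunit of the succinyl-CoA synthetase of the tricarboxylic acid cycle, read 494.9 units in P3 and 1454 in P1, 2.94-fold lower, and P4 read 1117 units. MRPS35, a protein of the small subunit of the mitochondrial ribosome, read 689.8 units in P3 and 1691 in P1, 2.45-fold lower, and P4 read 1326 units.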
